A study of Mus musculus with 12 samples.

Results

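The cathepsins described here are the 10 genes *Ctsa*, *Ctsb*, *Ctsc*, *Ctsd*, *Ctsf*, *Ctsh*, *Ctsk*, *Ctsl*, *Ctss* and *Ctsz*. They were taken by name from the deposited expression table, which covers 33641 gene symbols, and all 10 were measured in every library. RNA came from the myocardium, the muscle of the heart, of 12 male wild-type C57BL/6 mice in 4 groups of 3. Surgery either caused a myocardial infarction (MI) or was a sham. From 2 weeks after it the mice were injected once a week, for 6 weeks, with vehicle or with the synthetic glucocorticoid prednisone. The 4 groups are called sham vehicle, sham prednisone, MI vehicle and MI prednisone. Prednisone was injected intraperitoneally at 1 mg/kg at lights-on, and tissue was collected 24 hours after the last dose. The labels give an age of about 16 weeks and the treatment protocol about 10 weeks. The mice carried no transgene or deleted gene per the labels, which do not say which region of an infarcted heart was sampled.

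Cathepsins are proteases that work mainly in the acidic lysosome, where they break down proteins delivered by endocytosis and autophagy. Most are made as inactive precursors, carried to the lysosome by mannose 6-phosphate receptors, activated there by removal of a propeptide, and held in check by cystatins and other inhibitors. Some are secreted by macrophages and other cells and can cut elastin and collagen outside the cell, for which they have been studied in the remodelling heart. *Ctsd* encodes an aspartic protease and *Ctsa* a serine carboxypeptidase, and the other members of the group encode cysteine proteases.

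The promoters of *Ctss*, *Ctsc*, *Ctsd* and *Ctsf* are shown because the first pair changed with treatment of infarcted hearts and the second pair did not pass that test, as described further on, and they were picked for those results. Each run goes from 250 bases before the RefSeq gene start to 10 bases into the transcribed part (build GRCm38.p6), read 5′ to 3′ on the gene's strand. Capitals in *Ctss* (chr3:95526536-95526795, + strand) and *Ctsc* (chr7:88277835-88278094, + strand) mark a match to the sequence GAGGAAGT, a form of the site bound by PU.1, the macrophage transcription factor encoded by *Spi1*. It lies in reverse orientation in both. Capitals in *Ctsd* (chr7:142387818-142388077, − strand) and *Ctsf* (chr19:4854915-4855174, + strand) mark CACGTG, the core of the element bound by TFEB, a regulator of lysosomal genes.
Ctss promoter: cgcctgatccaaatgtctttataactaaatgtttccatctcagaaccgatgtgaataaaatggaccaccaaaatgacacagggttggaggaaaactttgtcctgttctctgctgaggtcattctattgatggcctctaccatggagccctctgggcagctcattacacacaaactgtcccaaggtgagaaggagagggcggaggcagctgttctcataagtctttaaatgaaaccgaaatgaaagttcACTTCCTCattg
Ctsc promoter: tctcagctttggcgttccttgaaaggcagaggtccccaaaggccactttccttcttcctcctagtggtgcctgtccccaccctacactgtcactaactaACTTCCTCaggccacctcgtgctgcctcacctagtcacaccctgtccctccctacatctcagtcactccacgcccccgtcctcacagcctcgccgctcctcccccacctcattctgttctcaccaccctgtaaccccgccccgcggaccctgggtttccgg
Ctsd promoter: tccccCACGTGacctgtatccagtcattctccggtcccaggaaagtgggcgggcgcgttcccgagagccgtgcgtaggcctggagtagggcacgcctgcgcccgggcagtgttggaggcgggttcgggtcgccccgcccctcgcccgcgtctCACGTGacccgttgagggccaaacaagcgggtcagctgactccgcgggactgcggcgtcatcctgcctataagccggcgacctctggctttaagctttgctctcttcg
Ctsf promoter: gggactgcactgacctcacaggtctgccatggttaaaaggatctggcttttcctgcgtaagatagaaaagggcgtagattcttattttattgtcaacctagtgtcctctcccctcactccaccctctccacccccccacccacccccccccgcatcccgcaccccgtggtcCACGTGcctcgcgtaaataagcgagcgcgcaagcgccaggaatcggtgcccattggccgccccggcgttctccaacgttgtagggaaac

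RefSeq windows reaching 50 bases past the start were at hand for 8 of the 10 genes (9 windows), and not for *Ctsb* and *Ctsh*. Both strands were searched. CACGTG was found in 4 of the 9 windows, those of *Ctsa*, *Ctsd*, *Ctsf* and *Ctsl*, and in 7.15% of all 32851 windows. *Ctsd* carried it at 245 and at 98 bases before the start (offsets -245 and -98), and *Ctsf* at offset -79. GAGGAAGT was found in 2 windows, those of *Ctsc* (offset -151) and *Ctss* (offset -2), and in 3.2% of all windows. *Ctsa* and *Ctsl*, which carry CACGTG, and *Ctsk*, with no GAGGAAGT match, were also called lower with prednisone in MI, as described further on. The promoters printed above thus do not show a division that holds for all the genes. GGGCGG, the GC box, was present in 5 windows against 35.7% of all. TATAAA was present in 1 window, that of *Ctss* (in reverse, offset -233, far from the start), against 13.6%, and CCAAT in 2 windows against 37.4%. TGANTCA, an AP-1 site, occurs in 7.81% of all windows, and a strict palindromic form of the glucocorticoid response element in 0.00913%, and neither was matched in these 9. A match of letters is a description of the window only.

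Values are TPM, the abundance of a transcript as a share of its library, corrected for transcript length. The number of reads is unknown, so precision rests on the spread between mice. MI vehicle replicate 3 stood apart. It had 14307 genes at 1 TPM or more against 11690 to 12772 in the other libraries, and a median-ratio scaling factor (the factor that brings the typical gene to a common level) of 1.648 against 0.872 to 1.134. Mitochondrially encoded RNA took 23.1% of its TPM, with 21.6% to 42.0% in the others. Correlations between the MI vehicle replicates across genes were 0.891 to 0.957. Counts for the cathepsins and for each gene list with calls are therefore also given with the TPM values rescaled by these factors, and without that library. Cardiomyocyte markers summed to between 31170 and 51080 TPM in every library, so the defining markers of the labelled tissue were present.

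The cathepsins spanned a wide range of levels. *Ctsd*, the main lysosomal aspartic protease (chromosome 7, 142375911 to 142388038), had the highest mean, 491.4 TPM over the 12 libraries, above 98.7% of the 13158 genes tested. *Ctsb* (chromosome 14, 63122462 to 63145923) averaged 99.8 TPM and *Ctsl* (chromosome 13, 64359337 to 64370890) 87.4 TPM. Then came *Ctsa* at 55.9, *Ctsh* at 46, *Ctsz* at 34.7, *Ctss* at 30.0, *Ctsc* at 21.1, *Ctsf* at 19.4 and *Ctsk* at 6.08 TPM. The order of the first 5 genes and the place of *Ctsk* at the bottom were the same in all 4 group means. *Ctsz*, *Ctss*, *Ctsc* and *Ctsf* changed places. In sham vehicle they averaged 20.8 ± 3.28, 19.0 ± 4.02, 17.8 ± 3.46 and 19.2 ± 1.22 TPM (SD, n = 3), with ranges that overlapped, so these neighbours did not differ beyond their spread. In MI vehicle *Ctss* stood above *Ctsz*, at 63.9 ± 33.1 against 58.4 ± 24.2 TPM, again within the spread. Together the 10 genes made up 0.0687% to 0.145% of all TPM. Their sum was 686.9 to 776.2 TPM in sham vehicle, 770.2 to 866.7 in sham prednisone, 921 to 1446 in MI vehicle and 797.6 to 862.9 in MI prednisone, so the MI vehicle libraries lay above all the others.

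**Figure D1:**
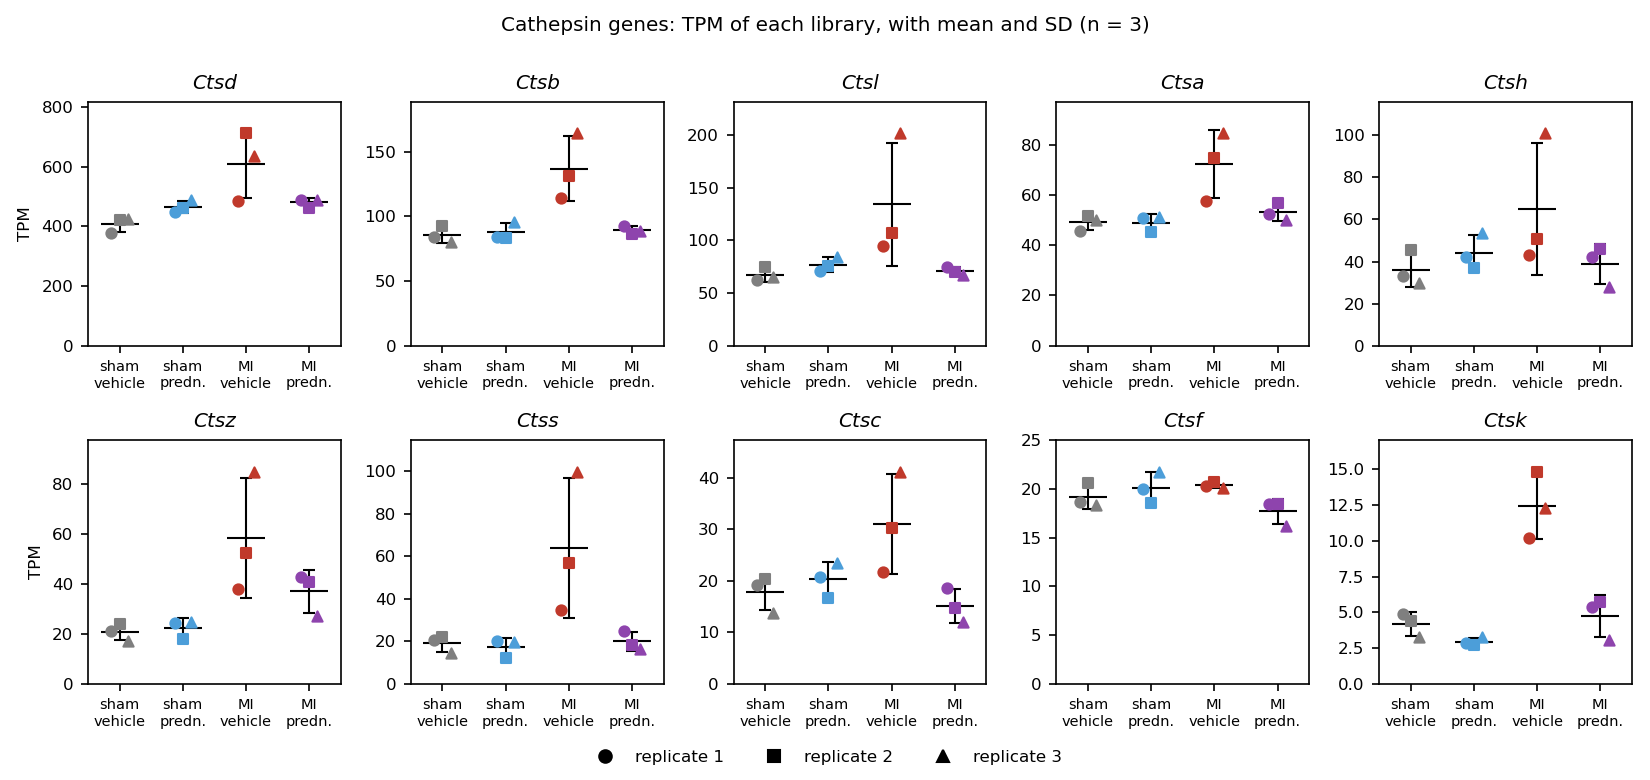
TPM of the 10 cathepsin genes (y axis, linear, starting at 0 in each panel) in the 4 groups; each point is a library, with the mean and SD of 3. The MI vehicle libraries are spread upward for most genes, *Ctsf* stays between 16.21 and 21.81 TPM in all libraries, and *Ctsk* in MI vehicle lies at 10.18 to 14.85 TPM against at most 5.749 elsewhere.

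The comparison of MI with sham in vehicle-treated mice asked how infarction alone changed the cathepsins. Of the 10 genes, 7 were higher in MI: *Ctss*, *Ctsz*, *Ctsk*, *Ctsl*, *Ctsb*, *Ctsd* and *Ctsa*. The change was about 3-fold for *Ctss* (ratio of means 3.36), *Ctsk* (2.97) and *Ctsz* (2.81), 2.00 for *Ctsl*, and 1.47 to 1.60 for the other 3. None was lower. Of all 13158 genes, 15.1% were called higher in this comparison by limma at an adjusted p under 0.05, and the median log2 change was 0.39 over all genes against 0.75 over the 10 cathepsins.

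*Ctsk* encodes cathepsin K, a strong collagenase and elastase best known from osteoclasts (chromosome 3, 95499256 to 95509362). It was at 4.915, 4.391 and 3.269 TPM in the sham mice and at 10.18, 14.85 and 12.32 TPM in the infarcted mice. The groups did not overlap, and here replicate 2, not replicate 3, was the highest of the infarcted hearts. The log2 change was 1.37 (± 0.21 SE, adjusted p = 0.0068 by limma).

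*Ctss* lies on the same chromosome (95526786 to 95556403), 17424 bases beyond the end of *Ctsk*, and encodes cathepsin S, an elastase that keeps activity at neutral pH and trims the invariant chain of MHC class II in antigen-presenting cells. Its values were 20.41, 22.15 and 14.47 TPM in sham and 34.92, 56.77 and 99.91 TPM in MI. Every infarcted heart was above every sham heart, and the infarcted hearts were spread widely, with replicate 3 highest. The log2 change was 1.59 (± 0.33 SE, adjusted p = 0.0164 by limma), and 1.21 without MI vehicle replicate 3 (limma adjusted p = 0.0324).

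Among the exopeptidases, which trim residues from protein ends, *Ctsz* (cathepsin Z, a carboxypeptidase, chromosome 2, 174427493 to 174439039) stood at 21.28, 23.84 and 17.34 TPM in sham and 37.89, 52.23 and 85.06 TPM in MI. The groups were apart, and the log2 change was 1.38 (± 0.27 SE, adjusted p = 0.0138 by limma). *Ctsc*, a dipeptidyl peptidase that activates the granule proteases of immune cells (chromosome 7, 88278085 to 88310888), was at 19.13, 20.32 and 13.83 TPM in sham and at 21.79, 30.22 and 41.23 TPM in MI. Although these values do not overlap, the log2 change of 0.75 (SE 0.24) missed the threshold (limma adjusted p = 0.054). *Ctsh*, an aminopeptidase (chromosome 9, 90054152 to 90076089), had 33.06, 45.27 and 29.9 TPM in sham and 43.35, 50.7 and 100.9 TPM in MI, overlapping values with a log2 change of 0.75 (± 0.30 SE, adjusted p = 0.0886 by limma).

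Of the broadly expressed lysosomal endopeptidases, *Ctsl* (cathepsin L) went from 62.18, 74.72 and 65.05 TPM in sham to 95.06, 107.1 and 201.7 TPM in MI, a log2 change of 0.91 (± 0.22 SE, adjusted p = 0.0259 by limma). *Ctsb* (cathepsin B, which also acts as a carboxypeptidase) went from 84.26, 92.72 and 79.93 TPM to 114.5, 131.5 and 164 TPM, a log2 change of 0.66 (± 0.13 SE, adjusted p = 0.0136 by limma). In both genes the groups were apart and replicate 3 was highest. *Ctsd* was at 377.4, 420.5 and 423.7 TPM in sham and 485.2, 712.1 and 636 TPM in MI, with a log2 change of 0.57 (± 0.13 SE, adjusted p = 0.0197 by limma), and here replicate 2 was highest.

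*Ctsa* (chromosome 2, 164832873 to 164841032) encodes a carboxypeptidase that also stabilises lysosomal beta-galactosidase and neuraminidase. It stood at 45.62, 51.71 and 50.01 TPM in sham and 57.72, 74.76 and 84.43 TPM in MI, groups that were apart, with a log2 change of 0.53 (± 0.13 SE, adjusted p = 0.0275 by limma). *Ctsf* (cathepsin F, chromosome 19, 4855130 to 4860918) was the flattest of the 10. Its values were 18.67, 20.59 and 18.33 TPM in sham and 20.34, 20.75 and 20.12 TPM in MI, with a log2 change of 0.09 (± 0.10 SE, adjusted p = 0.504 by limma).

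The values of 8 of the 10 cathepsins did not overlap between these groups and were higher in MI, against 40.8% of all genes. After median-ratio rescaling 4 were called higher (*Ctsk*, *Ctsl*, *Ctss* and *Ctsz*), against 3.77% of all genes higher and 3.67% lower, and *Ctsf* turned to a log2 change of -0.33 (limma adjusted p = 0.159). Without MI vehicle replicate 3 the count was 6, *Ctsa* losing its call, against 6.92% of all genes called higher. Without sham vehicle replicate 1, or without replicate 3 of that group, only *Ctsk* was called. The share of all genes called without those sham mice is not given here, so these counts are not set against it. In a fit of these 6 libraries alone the count was 0, where 2 of 13158 genes passed.

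**Figure D2:**
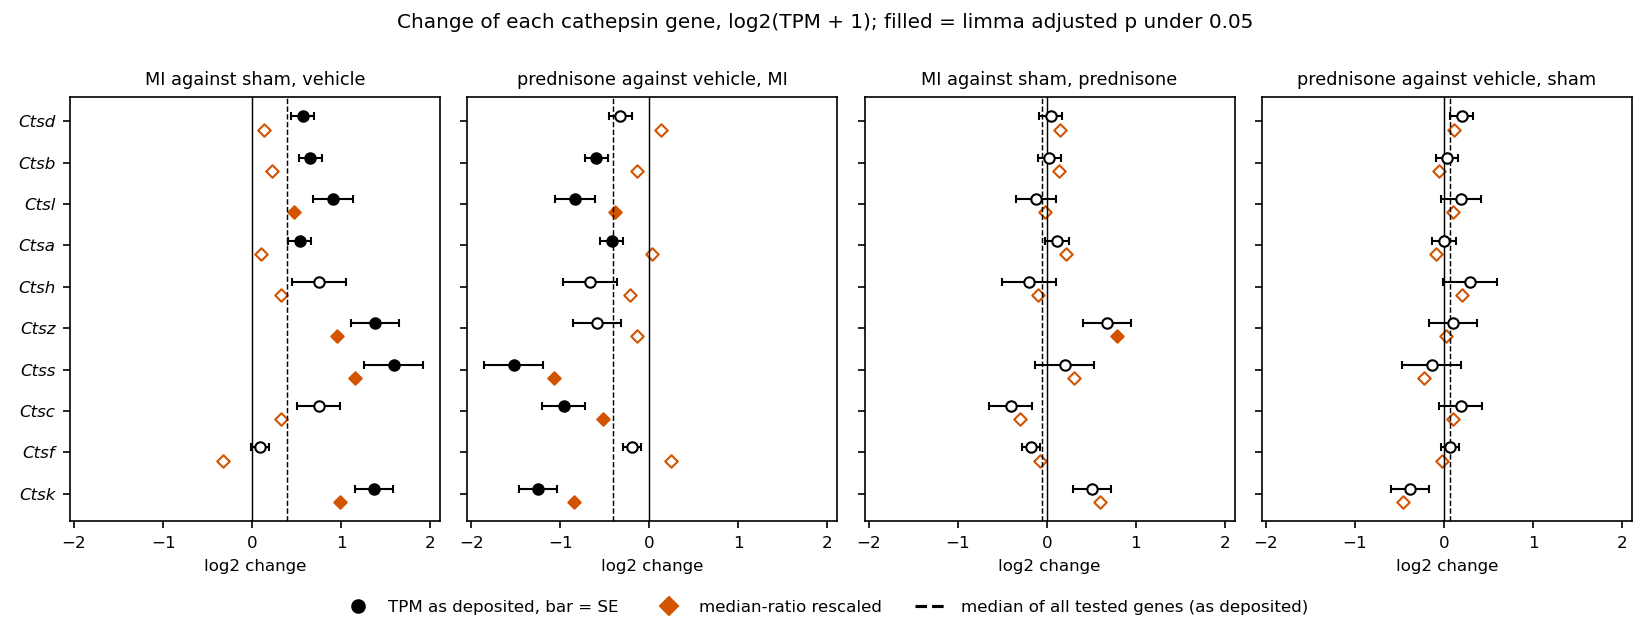
Log2 change of each cathepsin gene (x axis, log2 of TPM + 1) in 4 comparisons: circles with SE are TPM as deposited, diamonds are rescaled values, filled symbols have a limma adjusted p under 0.05, and the dashed line is the median of all genes tested. As deposited, *Ctss* is furthest from 0 in the panels for MI vehicle against sham (1.59) and for prednisone in MI (-1.53), while in sham hearts treated with prednisone no gene is filled.

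The next comparison, of the MI prednisone with the MI vehicle group, asked how treatment changed the cathepsins after infarction. It shares the MI vehicle libraries with the comparison above, so values that were high in those libraries enter both with opposite sign. Lower levels with prednisone were called for 6 of the 10 genes: *Ctss* (ratio of means 0.312), *Ctsk* (0.380), *Ctsc* (0.488), *Ctsl* (0.525), *Ctsb* (0.653) and *Ctsa* (0.734). None was higher. A lower level was called for 34.9% of all genes, and the median log2 change was -0.41 over all genes and -0.63 over the cathepsins.

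*Ctss* was at 24.85, 18.42 and 16.51 TPM with prednisone, below all 3 MI vehicle values. The log2 change was -1.53 (± 0.33 SE, adjusted p = 0.00597 by limma). *Ctsk* was at 5.392, 5.749 and 3.068 TPM, also apart from MI vehicle, with a log2 change of -1.25 (± 0.21 SE, adjusted p = 0.00206 by limma). Without MI vehicle replicate 3 the changes were -1.14 for *Ctss* (limma adjusted p = 0.0113) and -1.25 for *Ctsk* (limma adjusted p = 0.0039), so both calls held without that library.

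*Ctsc* had 18.7, 14.72 and 12.08 TPM with prednisone, each value below the lowest MI vehicle library, with a log2 change of -0.96 (± 0.24 SE, adjusted p = 0.0103 by limma). *Ctsl* had 74.89, 70.02 and 67.19 TPM and a log2 change of -0.84 (± 0.22 SE, adjusted p = 0.0143 by limma). *Ctsb* had 92.77, 86.27 and 88.56 TPM and a log2 change of -0.59 (± 0.13 SE, adjusted p = 0.00553 by limma). For these endopeptidases the prednisone replicates lay close together as deposited. The coefficient of variation was 5.51% for *Ctsl* and 3.70% for *Ctsb*, against 43.4% and 18.4% in MI vehicle. After rescaling the contrast was gone for *Ctsb*, at 98.3 ± 7.86 in MI prednisone and 108.4 ± 8.32 in MI vehicle (SD). It was smaller for *Ctsl*, at 77.9 ± 5.77 and 102.7 ± 17.1. *Ctsa* had 52.3, 56.96 and 49.84 TPM, just below the lowest MI vehicle value of 57.72, with a log2 change of -0.42 (± 0.13 SE, adjusted p = 0.0287 by limma).

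The other 4 genes did not pass. *Ctsd*, at 490.4, 462.9 and 488.9 TPM, overlapped MI vehicle, and its log2 change was -0.33 (± 0.13 SE, adjusted p = 0.0616 by limma). *Ctsz*, at 42.89, 40.89 and 27.33 TPM, also overlapped, with a log2 change of -0.59 (± 0.27 SE, adjusted p = 0.104 by limma). *Ctsh* had 42.21, 45.98 and 27.94 TPM and a log2 change of -0.66 (± 0.30 SE, adjusted p = 0.1003 by limma). *Ctsf*, at 18.45, 18.5 and 16.21 TPM, was below MI vehicle in every library, but by a log2 change of only -0.20 (± 0.10 SE, adjusted p = 0.149 by limma).

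In this comparison 7 of the 10 cathepsins were lower without overlap, against 42.6% of all genes. After rescaling, 4 were called lower (*Ctsc*, *Ctsk*, *Ctsl* and *Ctss*), against 14.3% of all genes lower and 14.5% higher, while *Ctsa*, *Ctsd* and *Ctsf* turned to log2 changes of 0.03, 0.13 and 0.24 (limma adjusted p = 0.864, 0.566 and 0.226). Without MI vehicle replicate 3 the count was 5, *Ctsa* losing its call, against 28.5% of all genes; without MI vehicle replicate 1 it was 9, and in a fit of the 6 MI libraries alone it was 1 (*Ctsk*).

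MI was next compared with sham in prednisone-treated mice. None of the 10 cathepsins was called by limma, against 16.8% of all genes in either direction (2.73% higher and 14.1% lower). An unadjusted p under 0.05 was found for 2, *Ctsz* and *Ctsk*, and for 4011 of all 13158 genes. *Ctsz* was at 24.5, 18.11 and 24.9 TPM in sham prednisone, below the 42.89, 40.89 and 27.33 TPM of MI prednisone, with a log2 change of 0.68 (± 0.27 SE, adjusted p = 0.113 by limma), and groups apart upward were found for 12.9% of all genes. It was called after rescaling (log2 change 0.79, limma adjusted p = 0.011, against 11.7% of all genes higher), in the fit of these 6 libraries alone and without MI vehicle replicate 3 (limma adjusted p = 0.0279, with the log2 change still 0.68, since that library enters only the shared estimate of spread). *Ctsk* was at 2.841, 2.731 and 3.251 TPM in sham prednisone against 5.392, 5.749 and 3.068 TPM, overlapping values with a log2 change of 0.51 (± 0.21 SE, adjusted p = 0.131 by limma), and it was called without MI prednisone replicate 3.

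The remaining members differed less in prednisone-treated mice. *Ctsc* and *Ctsf* had log2 changes of -0.40 (SE 0.24) and -0.18 (SE 0.10), with *Ctsf* lower in all 3 MI prednisone libraries than in any sham prednisone library, as were 32.2% of all genes. *Ctss* had a log2 change of 0.20 (SE 0.33), *Ctsa* 0.11 (SE 0.13), *Ctsd* 0.04 (SE 0.13) and *Ctsb* 0.03 (SE 0.13), and *Ctsh* and *Ctsl* had -0.20 (SE 0.30) and -0.12 (SE 0.22). Apart from *Ctsc* and *Ctsf*, each of these changes was smaller than its SE.

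In sham-operated mice prednisone was compared with vehicle, which asked what the drug did without infarction. No cathepsin was called by limma and none had an unadjusted p under 0.05, against 0.114% of all genes called, 15 genes. Such an unadjusted p was found for 469 of all 13158 genes. *Ctsd* was at 450.1, 460.8 and 489 TPM with prednisone, above all 3 sham vehicle libraries, with a log2 change of 0.20 (± 0.13 SE, adjusted p = 1 by limma). *Ctsk* was below all 3 sham vehicle libraries, with a log2 change of -0.39 (± 0.21 SE, adjusted p = 1 by limma). Groups apart in this way were found for 15.6% of all genes upward and 2.58% downward. The other 8 had overlapping values and log2 changes between -0.14 for *Ctss* and 0.29 for *Ctsh*.

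Whether prednisone acted differently in infarcted and sham hearts was tested directly, as the prednisone effect in MI minus that in sham. The difference was called for 3 cathepsins, all lower: *Ctsb* (-0.63, ± 0.18 SE, adjusted p = 0.0333 by limma), *Ctsc* (-1.15, ± 0.34 SE, adjusted p = 0.0355 by limma) and *Ctsl* (-1.03, ± 0.32 SE, adjusted p = 0.0403 by limma). A lower value was called for 20.7% of all genes, a share near that of the cathepsins, and the median difference over all genes was -0.48. *Ctss* had a larger difference with a larger error, -1.39 (± 0.47 SE, adjusted p = 0.0563 by limma), and *Ctsk* had -0.86 (± 0.30 SE, adjusted p = 0.0611 by limma). After rescaling no cathepsin passed, against 5.02% of all genes lower and 5.14% higher, and the count ranged from 0 to 8 as single mice were left out. It was 3 without MI vehicle replicate 3, against 23.2% of all genes called lower. It was 8 without MI vehicle replicate 1, and 0 or 1 without any of the 3 sham prednisone or 3 MI prednisone libraries or sham vehicle replicates 1 or 3. For those other fits the share of all genes called is not given here, so their counts are not set against it.

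Ratios within a library do not depend on how libraries are scaled. *Ctsd*, itself called higher in MI vehicle, made up 44.0% (MI vehicle replicate 3) to 61.3% (MI prednisone replicate 3) of the 10 genes. Shares of their sum therefore depend strongly on *Ctsd*. As a share of the summed TPM of the 10 genes, *Ctss* took 2.62 ± 0.517% in sham vehicle, 2.14 ± 0.488% in sham prednisone, 5.08 ± 1.63% in MI vehicle and 2.40 ± 0.426% in MI prednisone (SD, n = 3 each). *Ctsz* took 2.86 ± 0.383%, 2.78 ± 0.391%, 4.72 ± 1.00% and 4.46 ± 0.896% in the same order, with overlapping shares in the 2 MI groups. *Ctsc* took 1.82 ± 0.327% in MI prednisone and 2.54 ± 0.267% in MI vehicle, and these values did not overlap.

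The ratio of *Ctsz* to *Ctss*, chosen after these values were seen, was 1.04, 1.08 and 1.20 in sham vehicle and 1.09, 0.92 and 0.851 in MI vehicle. It was 1.22, 1.47 and 1.28 in sham prednisone and 1.73, 2.22 and 1.66 in MI prednisone. All 6 prednisone libraries were thus above all 6 vehicle libraries, and the MI prednisone libraries above all the others. It was not tested, because the pair was picked for this pattern.

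The authors' table lists transcripts, which shows what each gene value is made of. *Ctsb*, *Ctsf*, *Ctsk*, *Ctsl* and *Ctsz* have a single row each that is above 0 TPM. *Ctsd* was carried by Ctsd-202, at 89.5% to 96.6% of the gene, and *Ctss* mainly by Ctss-202, at 84.2% to 100%. Reads are divided between overlapping transcripts by an estimate, so the shares of short or partial forms are uncertain.

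In *Ctsh* the protein-coding Ctsh-201 was only part of the sum. It was at 17.47, 19.74 and 16.02 TPM in sham vehicle, 17.76, 18.6 and 16.68 TPM in sham prednisone, 25.25, 31.36 and 33.43 TPM in MI vehicle and 16.27, 16.03 and 13.74 TPM in MI prednisone. Its MI vehicle values were above those of all other libraries, while the gene's sum overlapped. In the fit that uses the most abundant transcript of each gene, Ctsh-201 was higher in MI vehicle than in sham vehicle by a log2 change of 0.72 (limma adjusted p = 0.0267), and lower with prednisone in MI by -0.92 (limma adjusted p = 0.000917). Ctsh-202, annotated as a target of nonsense-mediated decay, made up 26.2 ± 1.09% of the gene in sham vehicle, 26.3 ± 5.34% in sham prednisone, 25.2 ± 6.45% in MI vehicle and 48.4 ± 9.25% in MI prednisone, where each library was above all the others.

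In 3 of the genes a short form had its smallest shares in MI prednisone. Ctsh-204 (631 bases) was at 2.36%, 3.68% and 0% of its gene there and at 8.60% to 30.4% in the other libraries. Ctsa-203 (961 bases) was at 0.278%, 0% and 1.21% and otherwise at 4.23% to 16.5%. Ctsc-202 (831 bases) was listed at 0 in all 3 MI prednisone libraries and held 6.56% to 20.5% of *Ctsc* in the other 9. Of the transcript rows in the whole table at 1 TPM or more in all 9 other libraries, 67 of 15224 (0.44%) were listed at 0 in every MI prednisone library, against 0 or 1 row for each other group taken the same way. These transcripts were picked after their values were seen. The 3 MI prednisone libraries also differed in composition, with 15.3% to 20.3% of TPM on nuclear copies of mitochondrial genes against 9.32% to 14.6% elsewhere, and the part of that difference in the transcript shares was not tested.

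**Figure D3:**
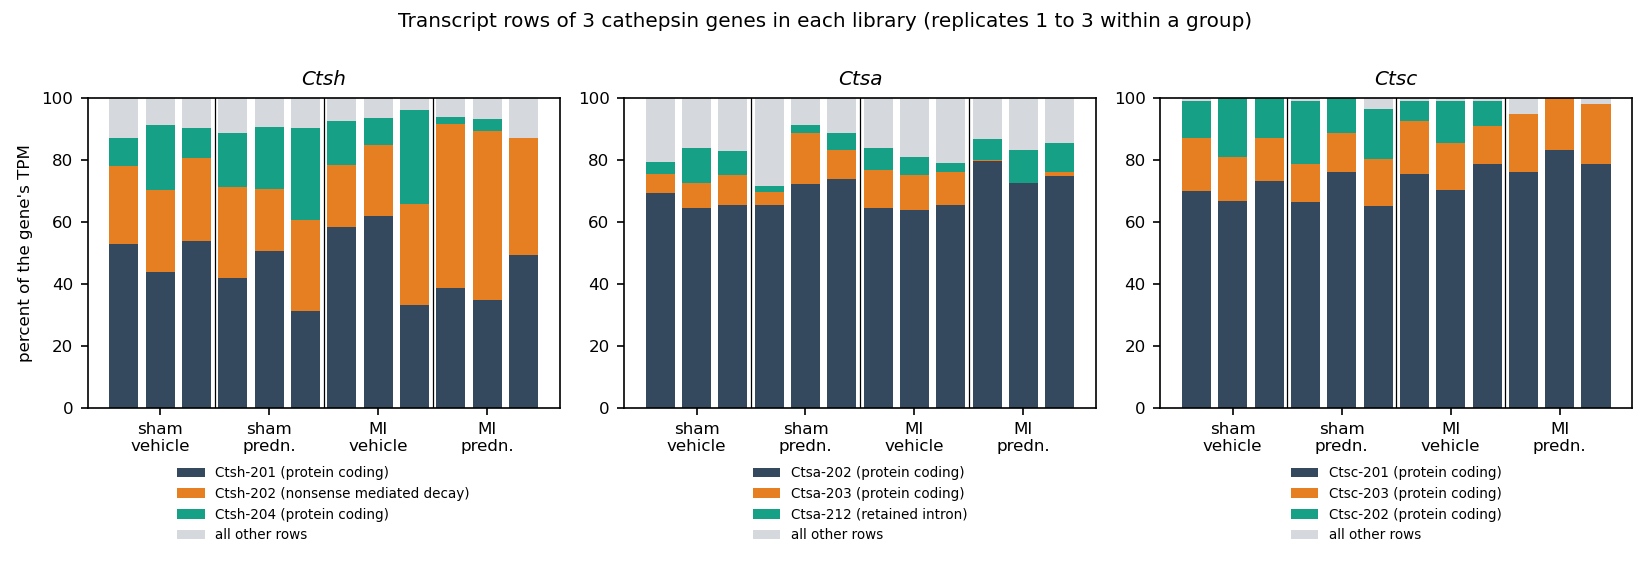
Share of each gene's TPM (y axis, percent) in its 3 most abundant transcript rows and in all others, one bar per library in the 4 groups. In MI prednisone the share of Ctsh-202 is at 37.8% to 54.5%, and Ctsh-204, Ctsa-203 and Ctsc-202 are at or near 0.

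The other genes of the pathway were taken from lists, whose counts are read against the 15.1% of all genes called higher in MI vehicle and the 34.9% called lower with prednisone in MI (6.92% and 28.5% without MI vehicle replicate 3). Rescaled counts are read against 3.77% of all genes higher and 3.67% lower in MI vehicle. With prednisone in MI the rescaled shares were 14.3% lower and 14.5% higher. Of 13 further cathepsin-named genes, 7 were listed at 0 in all libraries and *Ctso*, a cysteine cathepsin, alone passed the filter on low values. *Ctso* was at 5.851, 7.053 and 5.178 TPM in sham vehicle and 8.699, 7.858 and 12.83 TPM in MI vehicle, higher by a log2 change of 0.60 (± 0.18 SE, adjusted p = 0.0471 by limma), a call lost without MI vehicle replicate 3 and after rescaling (0.21, limma adjusted p = 0.211). With prednisone in MI it was at 5.033, 5.949 and 4.625 TPM, lower by -0.78 (± 0.18 SE, adjusted p = 0.00796 by limma), and its groups did not overlap in either comparison. *Ctsw* and *Ctse*, cathepsins of lymphocytes and other immune cells, were at 5.203 and 2.404 TPM in MI vehicle replicate 3 and at no more than 1.089 and 0.4444 TPM in any other library.

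The list of cathepsin inhibitors held cystatins and serpins, a family named for inhibiting serine proteases. Whether its serpins inhibit the 10 cathepsins described here was not tested. Of 9 listed inhibitors tested, 4 rose in MI vehicle: the cystatin *Cst3* and the serpins *Serpinb6a*, *Serpina3n* and *Serpinb9*. *Serpina3n*, a secreted serine protease inhibitor, moved from 5.643, 5.599 and 4.736 TPM to 21.62, 50.54 and 27.06 TPM, a log2 change of 2.34 (± 0.30 SE, adjusted p = 0.00505 by limma), and was the inhibitor still called after rescaling. *Cst3* encodes cystatin C, the main secreted inhibitor of cysteine cathepsins. It was above every cathepsin in every library, at 605.9 to 697.3 TPM in sham vehicle and 805.3 to 1168 TPM in MI vehicle (log2 change 0.65, ± 0.16 SE, adjusted p = 0.0278 by limma). With prednisone in MI 4 of the 9 inhibitors fell, all of them serpins (*Serpinb6a*, *Serpina3n*, *Serpinb1a* and *Serpinb9*), a share near that of all genes. After rescaling 1 inhibitor was higher in MI vehicle and 1 lower with prednisone, and without MI vehicle replicate 3 the counts were 2 and 3. *Cst3* was at 645.2 to 921.1 TPM, overlapping MI vehicle, with a log2 change of -0.35 (± 0.16 SE, adjusted p = 0.109 by limma). *Cstb*, the intracellular cystatin B, passed in neither comparison. It was at 32.86, 44.07 and 102.8 TPM in MI vehicle against 15.47 to 30.78 TPM in sham vehicle (log2 change 1.21, adjusted p = 0.0563 by limma) and 20.82 to 39.8 TPM in MI prednisone (-0.83, adjusted p = 0.112 by limma).

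Among 15 genes that process cathepsins or sort them to the lysosome, 5 rose in MI vehicle, and with prednisone in MI 9 fell and 1 rose. After rescaling none was called by limma in MI vehicle, and with prednisone 1 was lower and 3 were higher, so the balance turned; without MI vehicle replicate 3, 3 were higher in MI vehicle and 8 lower with prednisone. *Lgmn*, encoding legumain, which cleaves several cathepsin precursors, went from 37.63 to 43.35 TPM in sham vehicle to 50.43 to 69.13 TPM in MI vehicle (log2 change 0.61, ± 0.14 SE, adjusted p = 0.0195 by limma). It was at 32.23 to 39.36 TPM in MI prednisone (log2 change -0.79, ± 0.14 SE, adjusted p = 0.00209 by limma). After rescaling neither *Lgmn* change was called (0.18 and -0.34, limma adjusted p = 0.411 and 0.0722). *Lrp1*, an endocytic receptor that takes up secreted lysosomal enzymes, was the one that rose with prednisone, to 76.25, 66.62 and 45.63 TPM from 40.39, 49.79 and 41.6 TPM (log2 change 0.48, ± 0.17 SE, adjusted p = 0.0452 by limma), although its values overlapped. *Lrp1* was called higher after rescaling too, by 0.93 (limma adjusted p = 0.00872), but not without MI vehicle replicate 3.

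Of 40 other lysosomal hydrolases and their activators, 19 rose in MI vehicle, with a median log2 change of 0.63, and 24 fell with prednisone in MI, with a median of -0.58. *Psap*, the precursor of the saposins and the most abundant of them, was not called in MI vehicle (0.23, ± 0.11 SE, adjusted p = 0.121 by limma) and was lower with prednisone (-0.53, ± 0.11 SE, adjusted p = 0.00446 by limma). Of 29 lysosomal membrane and proton pump genes, 12 rose in MI vehicle (median 0.45) and 15 fell with prednisone (median -0.42), medians near the 0.39 and -0.41 of all genes. *Lamp1*, a major lysosomal membrane protein, had log2 changes of 0.46 (± 0.11 SE, adjusted p = 0.0237 by limma) and -0.46 (± 0.11 SE, adjusted p = 0.00835 by limma). After rescaling, 6 hydrolases were called higher in MI vehicle and with prednisone 11 were lower and 2 higher, while membrane and pump genes gave 2 higher and 1 lower in MI vehicle and 4 in each direction with prednisone. *Lamp1* was called in neither after rescaling (0.02 and -0.0028, limma adjusted p = 0.938 and 0.989), nor was *Psap* (-0.21 and -0.07, limma adjusted p = 0.252 and 0.66). Without MI vehicle replicate 3, 9 hydrolases (median 0.40) and 5 membrane and pump genes (median 0.29) were higher in MI vehicle, and 19 and 14 were lower with prednisone.

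Of 9 transcription factors of lysosomes and macrophages, *Tfe3* and *Spi1* rose in MI vehicle, and *Mitf*, *Spi1* and *Nr3c1* fell with prednisone in MI, a share near that of all genes. After rescaling 1 was higher in MI vehicle, and 2 were higher and 2 lower with prednisone; without MI vehicle replicate 3 the counts were 1, then 2 higher and 3 lower. *Spi1* was at 6.143, 6.392 and 3.859 TPM in sham vehicle, 9.372, 12.08 and 18.25 TPM in MI vehicle and 5.751, 5.033 and 4.961 TPM in MI prednisone, where the last 2 groups did not overlap (log2 change -1.14, ± 0.24 SE, adjusted p = 0.00458 by limma). *Tfeb* was not called in MI vehicle (0.12, ± 0.11 SE, adjusted p = 0.369 by limma) nor, as deposited, with prednisone (0.26, ± 0.11 SE, adjusted p = 0.0821 by limma), though it was at 14.86 to 16.88 TPM there against 11.83 to 14.34 in MI vehicle and was called higher after rescaling (0.68, limma adjusted p = 0.00244). *Nr3c1*, the gene of the glucocorticoid receptor, was at 18.22 to 29.52 TPM in MI vehicle and 7.316 to 10.26 TPM in MI prednisone (log2 change -1.22, ± 0.18 SE, adjusted p = 0.00141 by limma).

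For the substrates, all 10 genes of elastin, collagens and related matrix proteins rose in MI vehicle (median log2 change 1.68) and 9 fell with prednisone (median -1.27). After rescaling these counts were 6 and 6, and without MI vehicle replicate 3 they were 10 and 9. *Col3a1*, a fibrillar collagen, had log2 changes of 1.69 (± 0.22 SE, adjusted p = 0.00505 by limma) and -1.56 (± 0.22 SE, adjusted p = 0.00108 by limma). Of 10 MHC class II presentation genes, which use *Ctss* for invariant chain processing, 1 was called in MI vehicle (*Ifi30*, higher) and none by limma with prednisone. There 5 had an unadjusted p under 0.05, as did 6465 of all 13158 genes. The call of *Ifi30* was lost after rescaling and without MI vehicle replicate 3. *Cd74*, the invariant chain itself, was at 221.4, 223.7 and 1005 TPM in MI vehicle and 101.8 to 210.5 TPM in sham vehicle, so its height came from replicate 3.

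**Figure D4:**
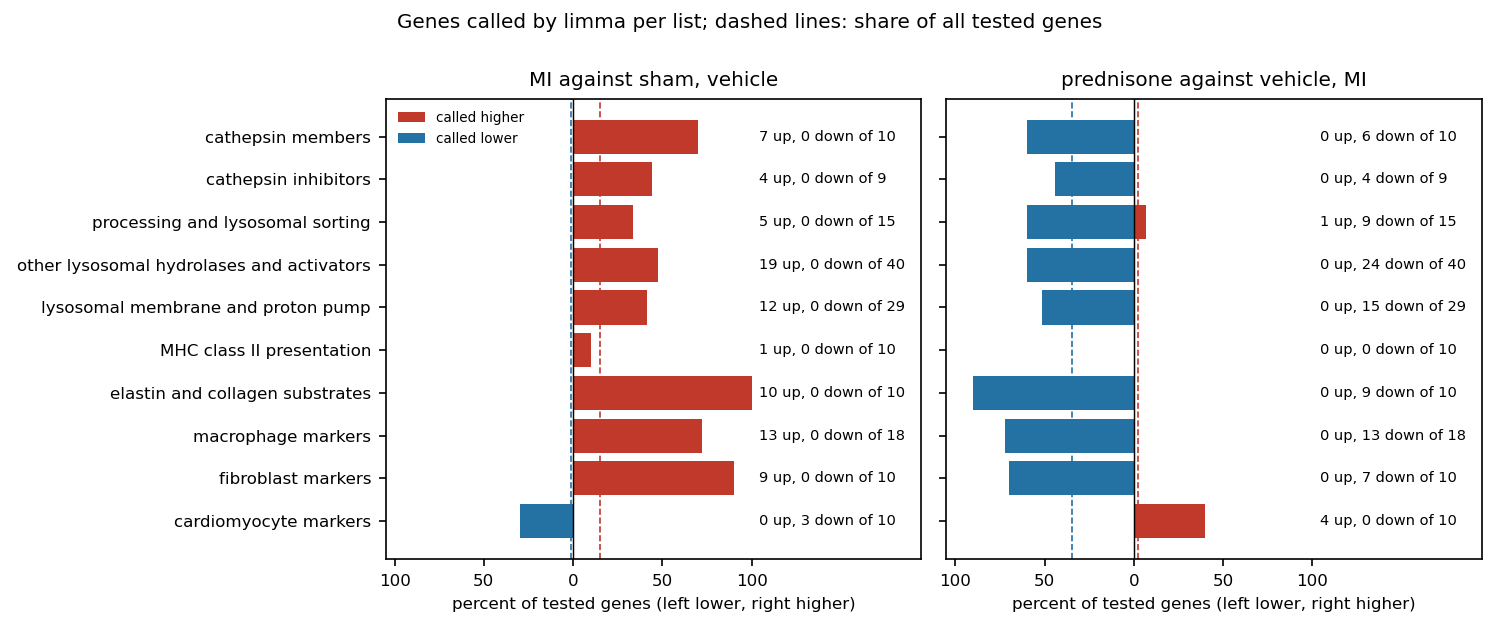
Percent of the tested genes of each list called higher (to the right) or lower (to the left) by limma in 2 comparisons, with the counts beside each bar; dashed lines give the shares of all genes tested, 15.1% and 0.904% in the first panel and 2.5% and 34.9% in the second. The cathepsins stand at 7 of 10 higher and 6 of 10 lower, next to macrophage and fibroblast markers that are called in the same directions.

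Calls among macrophage and fibroblast markers went in the same directions as those of the cathepsins. As deposited, calls among cardiomyocyte markers went the other way. After rescaling, 3.77% of all genes were called higher and 3.67% lower in MI vehicle. With prednisone in MI, 14.3% were then called lower and 14.5% higher. Of 18 macrophage markers, 13 were higher in MI vehicle (median log2 change 1.13) and 13 lower with prednisone in MI (median -0.93), and these counts were 7 and 6 after rescaling and 10 and 11 without MI vehicle replicate 3. Their summed level was 342.9 to 477.9 TPM in sham vehicle, 386.4 to 516 in sham prednisone, 747.6 to 1625 in MI vehicle and 375 to 670.2 in MI prednisone. Of 10 fibroblast markers, which share *Col1a1*, *Col1a2*, *Col3a1*, *Dcn* and *Lum* with the substrate list, 9 were higher in MI vehicle and 7 lower with prednisone in MI, which became 4 and 6 after rescaling and 7 and 6 without MI vehicle replicate 3. They summed to 961.6 to 1248, 1044 to 1254, 1835 to 2117 and 841.3 to 1397 TPM in the same order of groups. Of 10 cardiomyocyte markers, 3 were lower in MI vehicle and 4 higher with prednisone, and after rescaling 3 and 6. Without MI vehicle replicate 3, 1 was lower in MI vehicle, and with prednisone 2 were higher and 2 lower. In whole tissue, fewer cells of a type and less RNA per cell cannot be told apart, and the part of these shifts in the cathepsin values was not tested.

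T and NK cell markers summed to 276.1 TPM and B cell markers to 333.8 TPM in MI vehicle replicate 3, against 1.42 to 14.9 and 2.43 to 108.6 TPM in the other libraries. None of either list was called by limma in the MI vehicle or MI prednisone comparison, where none had an unadjusted p under 0.05. Such a p was found for 5557 and 6465 of all 13158 genes in those comparisons. Of 5 osteoclast markers, *Ocstamp*, *Dcstamp* and *Calcr* were at 0.142 TPM or less in every library. The other 2, which other cells also express, were not: *Acp5* was at 6.024, 9.172 and 0.6613 TPM in sham vehicle and 14.06, 3.118 and 52.96 TPM in MI vehicle, and *Mmp9* at 0.5223 to 1.634 and 1.032 to 4.834 TPM. Their values overlapped between those groups, and their part in the *Ctsk* values was not tested. The neutrophil markers *Ly6g*, *Mpo* and *Elane* were at 0.353 TPM or less, and of the 4 neutrophil markers tested 1 (*Retnlg*) was higher in MI vehicle and none was called by limma with prednisone in MI, nor had any an unadjusted p under 0.05. After rescaling none was called in MI vehicle and 1 was higher with prednisone, and without MI vehicle replicate 3 none and 2. *S100a9*, a neutrophil calcium-binding protein, was at 7.738, 7.166 and 27.77 TPM in MI vehicle and 16.66, 15.33 and 16.54 TPM in MI prednisone. Dendritic cell, adipocyte, erythroid and osteoclast lists had no gene called by limma in those comparisons, and 1 of their genes, a dendritic cell marker in MI vehicle, had an unadjusted p under 0.05. Adipocyte markers summed to 502.6, 12.22 and 1271 TPM in MI vehicle and to 17.83 to 312.5 TPM in sham vehicle. With such a spread the lack of calls does not show a stable level. Endothelial markers gave 5 of 8 higher in MI vehicle, then 3 lower and 1 higher with prednisone. After rescaling these were 0, then 0 and 1, and without MI vehicle replicate 3 they were 2, then 3 and 1. Smooth muscle and pericyte markers gave 3 of 8 higher, then 3 lower, against 0 and 0 after rescaling and 1 and 1 without that library. Mesothelial markers gave 2 of 5 higher, then 4 lower, against 0 and 4 after rescaling and 1 and 4 without it. Mast cell markers gave 0 of 5, then 1 lower, a call lost both ways.

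Relative to these markers, *Ctss* was 4.22% to 4.96% of the macrophage marker sum in sham vehicle, 3.19% to 4.41% in sham prednisone, 4.67% to 6.15% in MI vehicle and 2.83% to 4.40% in MI prednisone, where both MI groups were apart. *Lyz2* carried much of the macrophage marker sum, with 973.4 of 1625 TPM in MI vehicle replicate 3. Ratios to other macrophage markers may therefore differ, and the MI groups need not be apart in them. *Ctsz* was 4.99% to 5.17%, 4.69% to 5.37%, 5.07% to 5.23% and 6.29% to 7.29% of the same sum, so its highest ratios were in MI prednisone. *Ctsk* was 0.555% to 0.701% of the fibroblast marker sum in MI vehicle, above the 0.34% to 0.467% of sham vehicle, the 0.236% to 0.262% of sham prednisone and the 0.365% to 0.482% of MI prednisone. Its sham prednisone ratios were below those of every other library. *Gsn* and *Dcn* were the most abundant of the fibroblast markers, averaging 645.5 and 356.3 TPM over the 12 libraries. *Gsn* was the 1 fibroblast marker not called higher in MI vehicle. A sum led by other markers, such as *Col3a1*, may give other ratios. None of these ratios was tested.

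Across the 12 rescaled libraries the genes most like each cathepsin were found by Pearson r among 8115 candidates with a mean of at least 5 TPM. The libraries share groups and composition, so these values describe the pattern only. *Ctss* was most like *Mpeg1*, a pore-forming protein of macrophages (r = 0.98), *Cd68*, a macrophage lysosomal glycoprotein (0.96), and *Spi1* (0.96). *Ctsk* was most like *Fgfr1*, a fibroblast growth factor receptor (0.97), *Ptgis*, the prostacyclin synthase (0.97), and *C1qtnf7* (0.94). Among the genes nearest to *Ctsc* were *Vcam1*, an adhesion molecule (0.92), and *Axl*, a receptor for apoptotic cell clearance (0.90).

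The nearest genes to *Ctsz* were *Fxyd5*, *Rtn4* and *Dap* (each r = 0.98), and to *Ctsl* they were *Ppp1r9b* (0.95), *Cap1* and *Nab2* (both 0.94). *Ctsd* was nearest to *Itga5* (0.95), *Fuca2* (0.94) and *Lmcd1* (0.93), and *Ctsb* to *Chpf*, *Lhfp* (both 0.92) and *Aspn* (0.91). *Ctsa* was nearest to *Synpo2l* (0.90), *Chmp1a* (0.89) and *Mrc2* (0.88), and *Ctsh* to *Spata6*, *Sart3* (both 0.85) and *Igfbp6* (0.83). *Ctsf* had *Crip2* (0.97), *Tesc* and *Gm10053* (both 0.96) as its nearest, values that were 0.37, 0.14 and 0.19 without rescaling. Among the cathepsins themselves the closest pairs after rescaling were *Ctsl* with *Ctss* (r = 0.83), *Ctsk* with *Ctss* (0.83) and *Ctsb* with *Ctsk* (0.83), and the farthest was *Ctsf* with *Ctsl* (-0.85, and 0.45 without rescaling). Without rescaling the closest were *Ctsb* with *Ctss* (0.97) and *Ctsb* with *Ctsl* (0.96). Within groups, after rescaling, the closest were *Ctss* with *Ctsz* (0.89) and *Ctsc* with *Ctss* (0.87), so the ranking depends on the measure.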

How the data were processed

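RNA was measured in 12 libraries from 12 mice, assigned to 4 groups of 3 from their titles. Libraries were made with a stranded mRNA kit, per the labels' protocols. The authors deposited TPM values for 105129 transcript rows. Trimmomatic, HISAT2, kallisto and mm10 are named in the submitters' processing notes, without versions or roles. Every column sums to 1000000 TPM, so the depth is unknown and no counting error can be given.

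Rows were summed to genes by symbol, and the 13158 genes reaching 1 TPM in 3 or more libraries were kept. The limma package (version 3.58.1, R 4.3.3; lmFit, eBayes with trend) was run on log2(TPM + 1), with a mean per group and a spread shared by all 12 libraries; fold changes on this scale understate low genes. P-values were adjusted by Benjamini-Hochberg over all genes, with calls made below 0.05. An exact permutation test of 3 against 3 cannot give a p below 0.1. The script was tested on simulated data.

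The alternatives were median-ratio rescaling, no filter on low values, no trend, a pseudocount of 0.1, the most abundant transcript of a gene, the replicate number as a block, only the groups compared, TPM recomputed without mitochondrial, numt (nuclear copies of mitochondrial genes) and globin rows, a correction for transcript length (loess, span 0.5, 99.6% of tested genes), that correction with the block, and each mouse left out. List counts without MI vehicle replicate 3 were added after the data were seen. The 10 members and the 23 gene lists were chosen with earlier results of these data known. The named genes are the members, up to 4 of the most abundant genes of each pathway list and 3 of each marker list, *Cst3*, *Cstb*, *Lgmn*, *Cd74*, *Tfeb*, *Spi1*, *Nr3c1*, *Ctso*, *Ctsw* and *Ctse*, and the 3 genes nearest each member (1 of them is not reported here); genes listed beside a count of 5 or fewer, and markers named as near 0, were chosen after their values were seen. Coordinates are GENCODE M21 (GRCm38), in which 94.7% of rows were found; promoter sequences are from RefSeq.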

Additional observations from a re-analysis of the deposited data

Results flagged for a closer look

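In 3 cathepsin genes the effect of prednisone in infarcted hearts differed from that in sham hearts by a test of the difference itself. The prednisone effect in MI minus that in sham was -0.63 on the log2 scale for *Ctsb* (limma adjusted p = 0.0333), from 0.03 in sham and -0.59 in MI. For *Ctsc* the difference was -1.15 (limma adjusted p = 0.0355), from 0.19 and -0.96. For *Ctsl* it was -1.03 (limma adjusted p = 0.0403), from 0.19 and -0.84. In the same test 20.7% of all genes were called lower, a share near the 3 of 10 cathepsins, and the median of all genes was -0.48. After median-ratio rescaling the differences were -0.08, -0.63 and -0.49 (limma adjusted p = 0.701, 0.112 and 0.0768), and without MI vehicle replicate 3 they were -0.49, -0.93 and -0.70 (limma adjusted p = 0.0305, 0.0471 and 0.0112). The calls depended on other mice: *Ctsb* lost its call in 7 of the 12 fits that leave out a mouse, *Ctsc* in 7 and *Ctsl* in 9, with adjusted p by limma of up to 0.0862, 0.0884 and 0.0959. After the length correction none of the 3 kept its call, and *Ctsb* turned to 0.11 (limma adjusted p = 0.669).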

How the results depend on the processing

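*Ctsk* was called in both comparisons with MI vehicle under every setting run, except MI against sham fitted on those groups alone. For MI against sham with vehicle, 7 cathepsins called became 4 after median-ratio rescaling, 4 after the length correction, 1 after that correction with the replicate block and 0 in a fit of the groups compared alone, and it ranged from 1 to 9 with each mouse left out. For MI against sham with prednisone, 0 became 1 after rescaling, 1 in the fit of those groups alone, 1 without the mitochondrial, numt and globin rows (called rows removed here) and 2 after the length correction, and ranged from 0 to 1 without single mice. For prednisone against vehicle in MI, 6 became 1 in the fit of those groups alone, 3 after the length correction and 3 with the block added, and ranged from 5 to 9. For the difference of the prednisone effects, 3 became 0 after rescaling, 0 without the filter on low values, 5 with the most abundant transcript, 0 after the length correction and 0 with the block added, and ranged from 0 to 8. No cathepsin was called for prednisone in sham hearts under any setting run. The cause of these moves was not tested, except that the fit of the compared groups alone has fewer samples. The share of all genes called moved between fits too, from 15.1% to 6.92% for higher calls in MI vehicle without MI vehicle replicate 3. For most settings that share is not given here, so these counts do not describe the cathepsins apart from other genes.

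The replicate numbers name different mice, and deviations of same-numbered mice correlated at a mean of -0.37, -0.05, -0.25 and 0.0028 over the 4 pairwise comparisons, so the numbers do not pair the samples. With the replicate block the counts were 7, 0, 6, 0 and 2, the last having lost *Ctsc*.

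Directions turned only for values that passed no test on either side, apart from *Ctsa* and *Ctsb* in the prednisone comparison in MI and *Ctsb* in the difference, which were calls as deposited. For MI against sham with vehicle, *Ctsf* went to -0.33 (rescaled), -0.15 (rows removed), -0.34 (length correction) and -0.34 (with block). For MI against sham with prednisone, *Ctsd* went to -0.021 (most abundant transcript) and -0.039 (rows removed), and *Ctsb* to -0.054 (rows removed). Without single mice there, *Ctsb* ranged from -0.0078 to 0.092, *Ctss* from -0.012 to 0.32 and *Ctsh* from -0.34 to 0.012. For prednisone in MI, rescaling gave *Ctsa* 0.027, *Ctsd* 0.13 and *Ctsf* 0.24, and the length correction, with or without the block, gave *Ctsb* 0.039, *Ctsd* 0.066 and *Ctsf* 0.18. For prednisone in sham, *Ctsb* went to -0.056 (rescaled), -0.044 (rows removed) and -0.072 (length correction, with or without the block), *Ctsf* to -0.019 (rescaled) and -0.00744 (rows removed), and the most abundant transcript gave *Ctsa* 0.078 and *Ctsh* -0.0014. Without single mice there, *Ctsa* ranged from -0.054 to 0.052, *Ctsb* from -0.031 to 0.0901, *Ctss* from -0.31 to 0.077 and *Ctsz* from -0.015 to 0.25. For the difference, rescaling gave *Ctsa* 0.12, *Ctsd* 0.021 and *Ctsf* 0.26, and the length correction, with or without the block, *Ctsa* 0.014, *Ctsb* 0.11 and *Ctsf* 0.16. Over the settings that keep all mice, 399 single-gene results kept direction and side of the threshold. Of the others, 46 kept direction and lost a call, 12 kept direction and gained one, and 33 turned. Results that turned and also lost a call are counted only as turned. Over the settings leaving out a mouse the numbers were 536, 41, 12 and 11. TPM carries no depth, and 3 mice per group limit the precision.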
